A study of Mus musculus with 6 samples.

Results

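The nuclear genes of the mitochondrial respiratory chain and the ATP synthase were compared between inguinal fat of high gainers and of low gainers. Members were chosen by gene symbol, as the genes of complexes I to V, cytochrome c and the factors that assemble these complexes. The rule did not use their values, though earlier results of these data were known when it was set. Cox7a1 and Cox8b, the isoforms of brown fat and muscle, were set apart. The rule found 73 of the 13840 genes that the array annotation names by a single symbol, and 70 of them had a probe with a value on all 6 arrays, of 8596 such genes. Of the 70, 27 belong to complex I, 3 to complex II, 7 to complex III, 8 to complex IV and 13 to complex V, 1 is cytochrome c and 11 are assembly factors. Subunits that mitochondrial DNA encodes lie outside the rule and were not analysed here.

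The high gainers were male C57BL/6J mice with high weight gain, and the low gainers were male C57BL/6J mice with low weight gain, a single inbred strain in both groups. All of them had been fed D12331, a diet high in saturated fat, for 4 weeks from 8 weeks of age. Inguinal fat RNA was pooled from 8 high gainers and, apart from them, from 8 low gainers, and 3 one-color arrays were hybridized with each of the 2 pools. The 3 arrays of a pool repeat a measurement of the same RNA, so that each p-value below measures the spread between arrays, n counts arrays, and no test reaches beyond these 2 pools to single mice.

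The respiratory chain carries electrons from NADH, through complex I, and from succinate, through complex II, to ubiquinone, and on through complex III, cytochrome c and complex IV to oxygen. Complexes I, III and IV pump protons across the inner mitochondrial membrane, and complex V, the ATP synthase, uses their return to make ATP. In brown and beige adipocytes the uncoupling protein Ucp1 lets protons return without ATP synthesis, which releases heat. Inguinal fat is a white depot in which beige adipocytes can arise among white adipocytes.

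The values are signal intensities that the authors had quantile normalized, so that arrays share 1 distribution of values and equal values stand for equal ranks. Each high-gainer array held values for 18018 to 20605 of the 33012 probes, and each low-gainer array for 18444 to 19790. The 15821 probes with values on all 6 arrays were compared on the log2 scale with limma, and a call required an adjusted p (Benjamini-Hochberg) below 0.01 together with a fold of at least 1.5. Over these probes the correlation between arrays was 0.988 to 0.994 within a pool and 0.972 to 0.980 between the pools. Of 18 listed symbols of adipocyte markers, which include an older name, 13 were measured. Of these 0 were called, with a median difference of 0.07 on the log2 scale, high gainers minus low gainers. Markers of some other cell types were called lower in high gainers. These were 10 of 12 genes of skeletal muscle, 6 of 6 of B lymphocytes, 5 of 7 of T lymphocytes and 4 of 6 of epithelium. The log2 ratios of the other genes of these lists also lay below 0. Of 4 measured macrophage markers 0 were called and 3 lay above 0, with a median log2 ratio of 0.06. Of 2 measured erythroid markers 0 were called and both lay above 0, with a median of 0.19. In pooled tissue, fewer cells of a type and less RNA per cell cannot be told apart.

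No gene of the respiratory chain or the ATP synthase was called in either direction. Of 70 members, 0 were called higher and 0 lower in high gainers, where limma called 2.5% of all tested probes higher (396) and 3.99% lower (632). The count stayed at 0 in both directions at an adjusted p under 0.05 with no fold threshold. By an unadjusted p under 0.05, 2 members lay higher in high gainers (Ndufaf1 and Atp5md) and 1 lower (Sdhc), against 17.4% and 13.6% of all tested probes. The array values of the pools did not overlap for 6 members higher and 9 lower in high gainers, 8.57% and 12.9% of the members, where 20.3% and 16.3% of all tested probes did so. Since 62 of the 70 probes lay in the brightest 25% of tested probes, the same shares were taken there, with 2.05% called higher, 2.3% called lower, and 15.2% and 13.5% at an unadjusted p under 0.05.

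The differences were also bounded. For 65 of 70 members (92.9%) the 95% interval of the pool ratio lay within 1.5-fold in either direction, against 58.1% of all tested probes and 76.2% of the brightest 25%. The other 5 were Cycs, Cox6b2, Sdha, Ndufb11 and Ndufc2, and for each of them the lower end of the interval passed 1.5-fold lower in high gainers. The median size of the log2 difference was 0.09 over the members, 0.20 over all tested probes and 0.15 over the brightest 25%. The median log2 ratio, taken as high over low gainers throughout, was -0.03 over the members, with 42 of 70 below 0, and 0.03 over all tested probes, with 45.9% below 0.

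**Figure D1:**
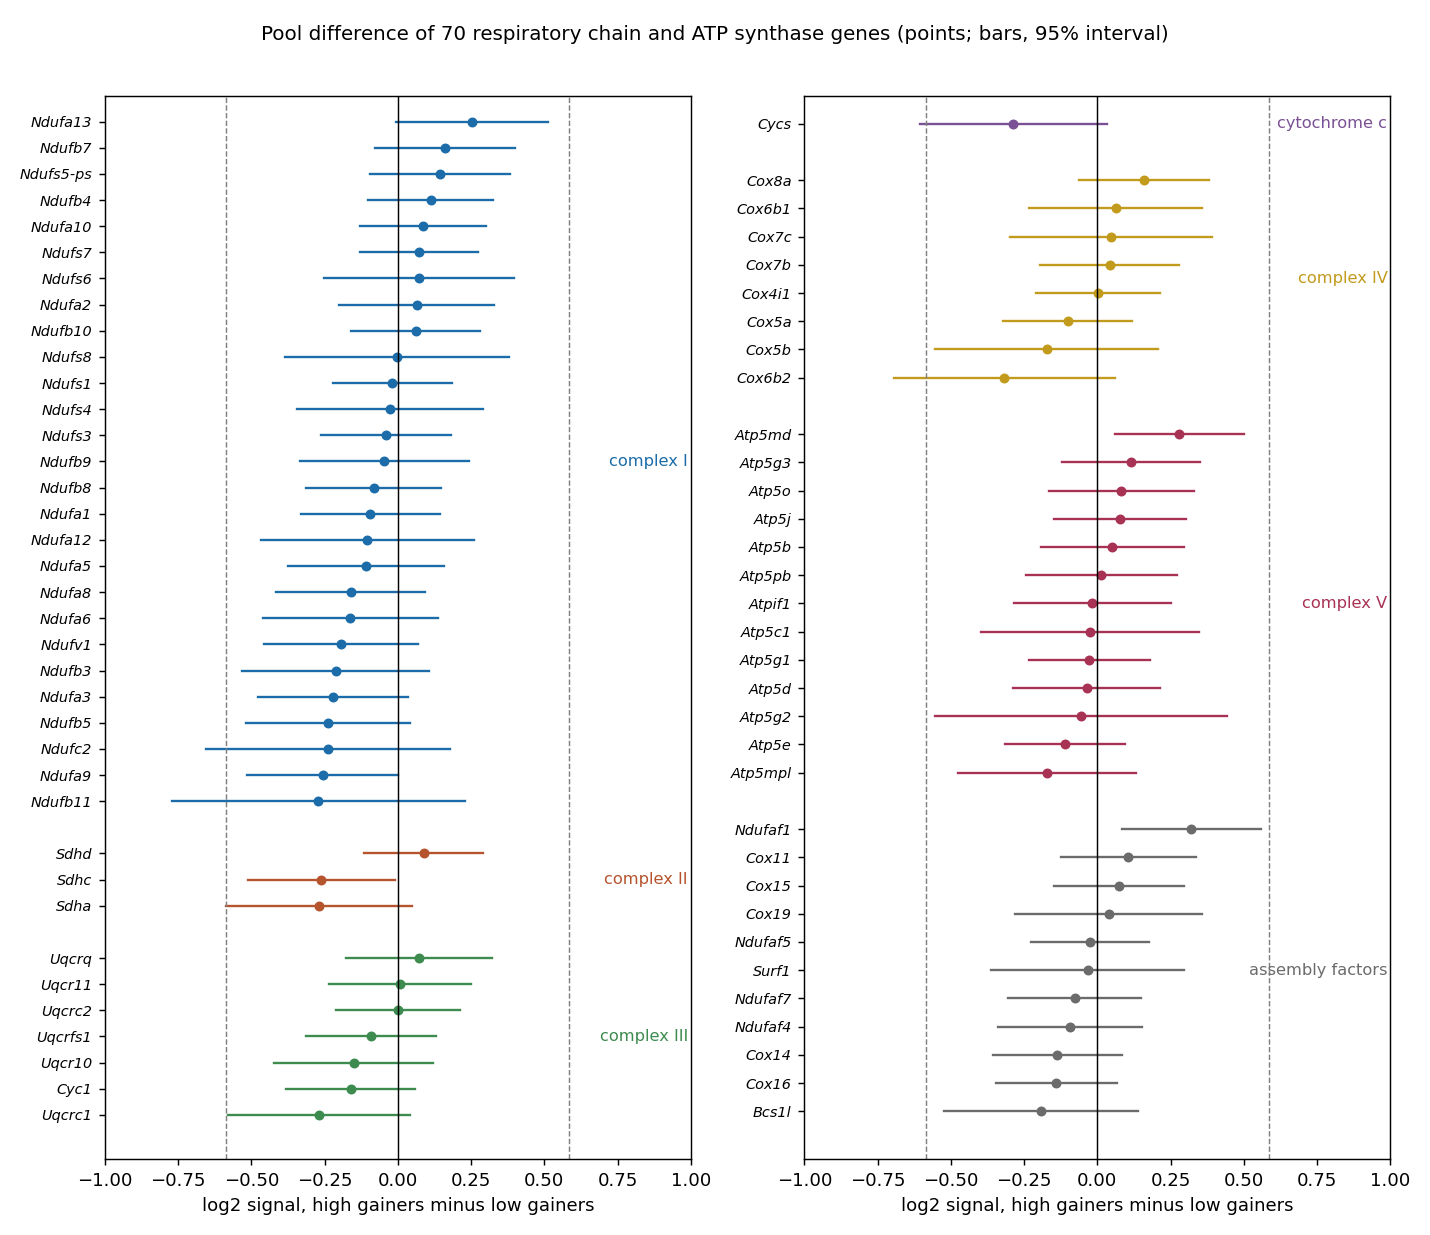
Log2 signal of high gainers minus low gainers for each of the 70 members by complex (points), with the 95% interval from limma over 3 arrays per pool (bars) and dashed lines at 1.5-fold in either direction. All points lie between -0.32 and 0.32, and 65 of the 70 bars stay between the dashed lines.

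The promoters of 60 of the 70 genes were found among the RefSeq promoters of GRCm38.p6, each running from 250 bases before to 50 after an annotated start, and they gave 65 windows. Many genes of this kind are known targets of the nuclear respiratory factors, and motifs were searched as exact letters on both strands. The core of the NRF1 motif, GCGCATGC, stood in 12.3% of the members' windows, 2.71% of all 32851 windows and 3.52% of the 21263 windows of protein-coding genes. The core of ETS factors, CGGAAG, which the nuclear respiratory factor GABP reads, stood in 44.6% of the members' windows, against 16.9% of all and 21.1% of coding windows, and the YY1 core, AAGATGGC, in 12.3%, against 2.75% and 3.05%. The GC box GGGCGG was in 49.2%, against 35.7% of all and 46.2% of coding windows, and CCAAT in 40%, against 37.4% and 38.2%. The ERR element AAGGTCA was in 7.69%, against 4.72% and 4.08%, and TATAAA in 6.15%, against 13.6% and 12.6%. None of these motifs contains another. A match is a stretch of letters and not a measured binding site.

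The windows of 4 members follow, from 5′ to 3′ on the strand of the gene, with matches to the NRF1, ETS, YY1, ERR and GC box letters in capitals. Cycs and Uqcrc1 hold the NRF1 core and lay among the lowest members in high gainers, and Ndufaf1 and Atp5md hold the ETS core and lay highest. Other members at the ends of the range differed from this. Cox6b2, Ndufb11 and Sdha, at log2 ratios of -0.32, -0.27 and -0.27, hold no NRF1 core. Ndufa9, at -0.26, holds the ETS core, and Ndufa13, at 0.25, does not. In the window of Uqcrc1 the matches to the NRF1 core on opposite strands overlap in a single stretch, GCGCATGCGC, which reads the same on both strands.
Cycs, chr6:50566520-50566819, minus strand: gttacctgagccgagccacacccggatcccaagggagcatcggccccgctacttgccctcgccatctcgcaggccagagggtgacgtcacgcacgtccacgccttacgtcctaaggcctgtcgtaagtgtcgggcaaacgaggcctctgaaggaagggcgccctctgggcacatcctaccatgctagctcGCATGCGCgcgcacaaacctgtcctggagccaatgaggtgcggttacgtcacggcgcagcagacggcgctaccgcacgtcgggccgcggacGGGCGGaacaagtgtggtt
Uqcrc1, chr9:108936398-108936697, plus strand: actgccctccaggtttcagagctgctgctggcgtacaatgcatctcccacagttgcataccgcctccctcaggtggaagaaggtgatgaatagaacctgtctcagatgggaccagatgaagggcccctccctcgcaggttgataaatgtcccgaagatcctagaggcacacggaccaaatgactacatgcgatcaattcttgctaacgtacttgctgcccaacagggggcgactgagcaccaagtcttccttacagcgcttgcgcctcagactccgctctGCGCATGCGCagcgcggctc
Ndufaf1, chr2:119662785-119663084, minus strand: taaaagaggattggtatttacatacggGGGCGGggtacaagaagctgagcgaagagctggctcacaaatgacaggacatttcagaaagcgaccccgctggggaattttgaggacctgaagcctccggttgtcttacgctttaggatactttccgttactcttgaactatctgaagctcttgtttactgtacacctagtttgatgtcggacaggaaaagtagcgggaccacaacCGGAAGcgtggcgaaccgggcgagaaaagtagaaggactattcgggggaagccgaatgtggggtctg
Atp5md, chr19:47090598-47090897, minus strand: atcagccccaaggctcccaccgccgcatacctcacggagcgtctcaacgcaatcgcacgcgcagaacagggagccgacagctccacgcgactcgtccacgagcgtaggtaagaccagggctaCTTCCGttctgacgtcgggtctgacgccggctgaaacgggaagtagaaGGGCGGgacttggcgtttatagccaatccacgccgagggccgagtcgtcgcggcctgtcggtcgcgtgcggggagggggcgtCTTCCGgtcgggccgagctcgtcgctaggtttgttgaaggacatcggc

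The 8 genes with the NRF1 core had a median log2 ratio of -0.13, between -0.29 and 0.01, and 7 of the 8 lay below 0. The 27 genes with the ETS core had a median of -0.03 with 17 below 0, and ran from -0.26 to 0.32. Neither set held a called gene, and the members were grouped by motif after their values were known.

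Complex I, the NADH dehydrogenase through which most electrons enter, had 27 of 27 genes measured. Their median log2 ratio was -0.05, with 18 below 0 and 9 above 0, and the range was -0.27 to 0.25. The 5 core subunits, Ndufs1, Ndufs3, Ndufs7, Ndufs8 and Ndufv1, lay between -0.19 and 0.07, and the 21 accessory subunits between -0.27 and 0.25. Ndufs1, the large iron-sulfur subunit, had 355156, 345936 and 356806 on the high-gainer arrays, against 367968, 347338 and 356238 on the low-gainer arrays. Its log2 ratio was -0.02 (standard error 0.09, limma adjusted p = 0.912), and the arrays of the pools overlapped. Ndufv1, which binds NADH and the flavin, had 248255, 246025 and 208617 in high gainers, against 291052, 255255 and 256714 in low gainers. Every high-gainer array of Ndufv1 was below every low-gainer array, with a log2 ratio of -0.19 (standard error 0.11, limma adjusted p = 0.295).

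The accessory subunits of complex I, which surround the core and take no part in electron transfer, lay at both ends of the range. Ndufa13, also known as GRIM-19, had 783675, 808203 and 944484 in high gainers, against 716143, 746752 and 659418 in low gainers. Its arrays did not overlap, and its log2 ratio of 0.25 was the highest of the complex (standard error 0.11, limma adjusted p = 0.169). Ndufa9 had 154923, 153028 and 148535 in high gainers, against 159331, 195965 and 192085 in low gainers. Its log2 ratio was -0.26 (standard error 0.11, limma adjusted p = 0.163), again with arrays that did not overlap, and the array of the low gainers closest to the high gainers was the one numbered 1. The lowest ratio of the complex, -0.27 for Ndufb11, came from a dim probe with 5887, 6949 and 7021 in high gainers, against 5783, 10636 and 8206 in low gainers. These arrays overlapped (standard error 0.21, limma adjusted p = 0.442), and the ratio was -0.06 without low gainers replicate 2 and -0.50 without low gainers replicate 1. Ndufs7 lay higher in high gainers by a log2 ratio of 0.07 and Ndufa3 lower by -0.22, each with arrays that did not overlap and neither past the test. The probe named Ndufs5-ps is annotated by RefSeq as a transcribed pseudogene of the subunit gene Ndufs5, and signal from the near-identical parent gene cannot be told apart there (log2 ratio 0.14, standard error 0.10).

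Complex II, succinate dehydrogenase, oxidizes succinate in the citric acid cycle, and its 3 measured genes did not lie on the same side. Sdha, the flavoprotein that holds the active site, had 220250, 232733 and 169667 in high gainers, against 237032, 258652 and 248108 in low gainers. Its arrays did not overlap. The log2 ratio was -0.27 (standard error 0.14, limma adjusted p = 0.230), and without the high-gainer array numbered 3, the lowest of the 6, it was -0.13. Sdhc, a membrane anchor, had 105807, 98206 and 98677 in high gainers, against 133645, 120659 and 109285 in low gainers. Here too the arrays did not overlap. Sdhc was the member with the smallest p among those lower in high gainers, with a log2 ratio of -0.26 (standard error 0.11, limma adjusted p = 0.147). The other anchor, Sdhd, had 540087, 539154 and 511342 in high gainers, against 496828, 489007 and 509479 in low gainers. All its high-gainer arrays were above its low-gainer arrays, by a log2 ratio of 0.09 (standard error 0.09, limma adjusted p = 0.543). The median of the 3 genes, -0.26, was -0.13 without high gainers replicate 3. Sdhb, the iron-sulfur subunit, was blank on all 6 arrays and has no value here.

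Complex III, which passes electrons from ubiquinol to cytochrome c, had 7 of 7 genes measured, with a median log2 ratio of -0.09 and 4 of 7 below 0. Uqcrc1, a core protein of the matrix arm whose promoter is shown above, had 115375, 98079 and 102821 in high gainers, against 111087, 148188 and 123531 in low gainers. The high-gainer array numbered 1 was above the lowest low-gainer array, and the log2 ratio was -0.27 (standard error 0.13, limma adjusted p = 0.221). It was -0.16 without low gainers replicate 2. Cyc1, which encodes cytochrome c1, the subunit that hands electrons on, had 597612, 552684 and 549740 in high gainers, against 671500, 615065 and 613735 in low gainers. Its arrays did not overlap, at a log2 ratio of -0.16 (standard error 0.09, limma adjusted p = 0.299). Uqcrfs1, the Rieske iron-sulfur protein, lay at -0.09, and Uqcrc2, the partner core protein of Uqcrc1, at 0.00 with an interval of -0.21 to 0.21. The highest of the complex was Uqcrq, a small membrane subunit, at 0.07 (standard error 0.11).

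Cycs, the soluble carrier between complexes III and IV, was measured by 2 probes. The brighter probe had 632632, 581672 and 566391 in high gainers, against 611726, 851856 and 725883 in low gainers. Its log2 ratio was -0.29 (standard error 0.14, limma adjusted p = 0.204), the highest high-gainer array lay above the lowest low-gainer array, and the interval ran from -0.61 to 0.03. The other probe had 591540, 577691 and 541355 in high gainers, against 643384, 677763 and 742040 in low gainers, with no overlap and a log2 ratio of -0.27 (standard error 0.10, limma adjusted p = 0.112). The ratio of the brighter probe was -0.17 without low gainers replicate 2 and -0.41 without low gainers replicate 1, and it was called in neither case.

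**Figure D2:**
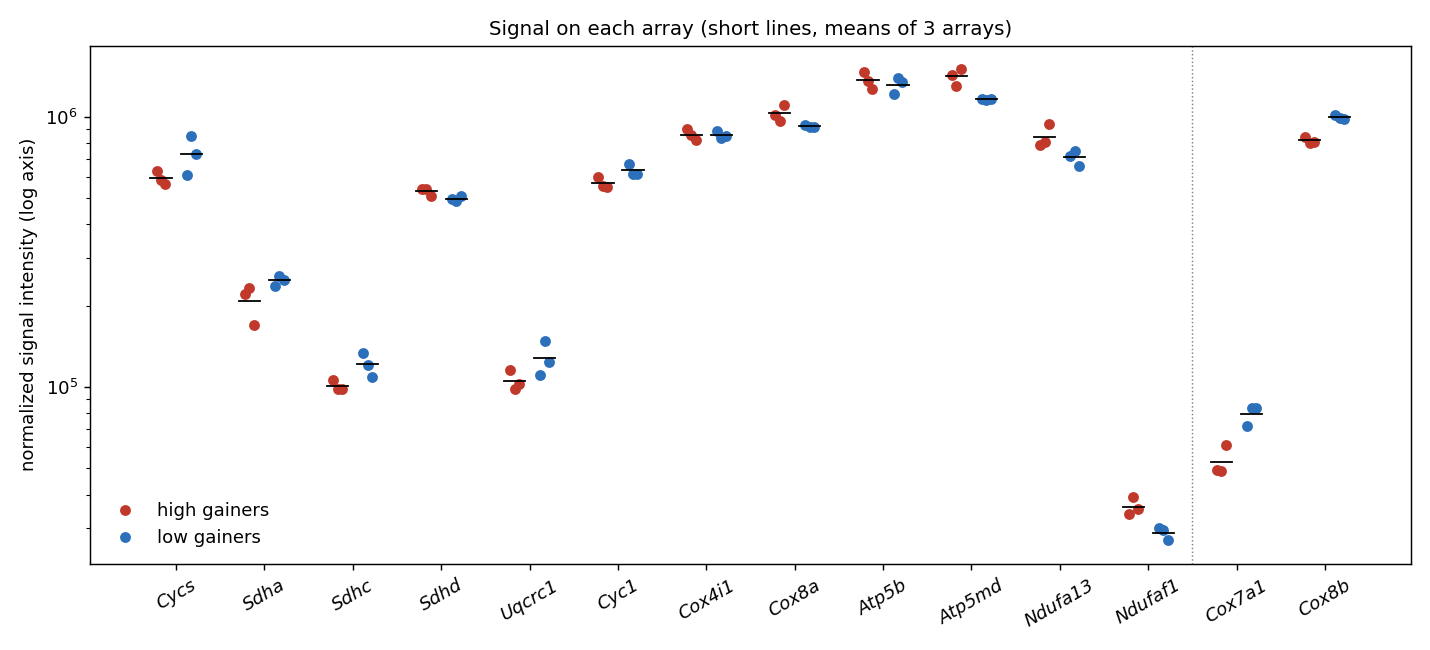
Normalized signal intensity (log axis) of 12 members and, right of the dotted line, of Cox7a1 and Cox8b on each array, with high gainers left of low gainers and short lines at the mean of 3 arrays. The Atp5md arrays of high gainers lie between 1305287 and 1497354, all above the low-gainer arrays at 1158048 to 1161946, while those of Cox4i1 overlap.

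Complex IV, cytochrome c oxidase, reduces oxygen to water, and 8 of its 10 genes had values on all arrays. Their median log2 ratio was 0.02, with 3 of 8 below 0, and leaving out high gainers replicate 3 turned it to -0.06, as did leaving out low gainers replicate 1, to -0.02, and centering on the adipocyte markers, to -0.05. The 7 subunits of broad expression ran from -0.17 for Cox5b to 0.16 for Cox8a. Cox4i1, the subunit isoform of most tissues, had 900428, 856513 and 819581 in high gainers, against 888445, 833325 and 850152 in low gainers. The arrays overlapped fully, and the log2 ratio was 0.00 with an interval of -0.21 to 0.21. Its isoform Cox4i2 had 2003, 1592 and 1686 in high gainers, against 2800 and 2164 on the low-gainer arrays with a value, and was not tested because the low-gainer array numbered 2 was blank. Cox8a, the broadly expressed counterpart of Cox8b, had 1017663, 963087 and 1110767 in high gainers, against 931910, 913749 and 919139 in low gainers. Each high-gainer array was above each low-gainer array, at a log2 ratio of 0.16 (standard error 0.09, limma adjusted p = 0.308). Cox5b, which binds a zinc ion, lay at -0.17 and Cox5a at -0.10, both with arrays that overlapped. Cox6b1 lay at 0.06 (standard error 0.13). Cox6b2, known as the testis isoform, was a dim probe at 3117, 3213 and 2325 in high gainers, against 3408, 4152 and 3188 in low gainers, with a log2 ratio of -0.32 (standard error 0.16, limma adjusted p = 0.232). Cox7b2 was blank on all 6 arrays.

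Complex V, the ATP synthase, had 13 of 13 genes measured, with a median log2 ratio of -0.02 and 7 of 13 below 0. Leaving out low gainers replicate 2 turned the median to 0.05, and leaving out high gainers replicate 1 turned it to 0.01. Atp5b, the catalytic beta subunit, had 1460593, 1360203 and 1269208 in high gainers, against 1211294, 1387790 and 1348150 in low gainers. The values overlapped, and the log2 ratio was 0.05 with an interval of -0.19 to 0.29. The 4 measured subunits of the F1 head and its stalk, Atp5b, Atp5c1, Atp5d and Atp5e, ran from -0.11 to 0.05, and Atp5e was the one whose arrays did not overlap (log2 ratio -0.11, standard error 0.09). The 3 genes of the c ring, which turns as protons pass, encode the same mature protein, and Atp5g1 lay at -0.03, Atp5g2 at -0.06 and Atp5g3 at 0.11. The 3 measured genes of the peripheral stalk, Atp5o, Atp5pb and Atp5j, lay between 0.01 and 0.08. A dimmer probe of Atp5j lay at 0.21 (standard error 0.09, limma adjusted p = 0.155).

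Among the small subunits of complex V, Atp5md, known as DAPIT, stood highest. Its arrays had 1429882, 1305287 and 1497354 in high gainers, against 1161946, 1158048 and 1161946 in low gainers, where equal values stand for equal ranks. No arrays overlapped, and the log2 ratio was 0.28 (standard error 0.09, limma adjusted p = 0.0881), which is a 1.21-fold higher signal with an interval of 1.04 to 1.41. Atp5mpl, another small membrane subunit, lay lowest of the complex at -0.17 (standard error 0.13). Atpif1, the protein that blocks the ATP synthase from running in reverse, had 145215, 147223 and 153734 in high gainers, against 173058, 137414 and 143206 in low gainers. Its arrays overlapped and its log2 ratio was -0.02 (standard error 0.11).

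The 11 assembly factors had a median log2 ratio of -0.03, with 7 of 11 below 0. Ndufaf1, a chaperone of complex I assembly, was the member with the smallest p of all 70. It had 33883, 39206 and 35259 in high gainers, against 29994, 29538 and 27129 in low gainers, without overlap. The log2 ratio was 0.32 (standard error 0.10, limma adjusted p = 0.0727), or 1.25-fold with an interval of 1.06 to 1.47. The other 3 factors of complex I, Ndufaf4, Ndufaf5 and Ndufaf7, lay between -0.09 and -0.02. The 6 factors of complex IV, among them Surf1 at -0.03, the heme A synthesis enzyme Cox15 at 0.08 and the copper chaperone Cox11 at 0.11, ran from -0.14 to 0.11. Cox14 and Cox16 had arrays that did not overlap, each lower in high gainers at a log2 ratio of -0.14 (standard error 0.09). Bcs1l, which inserts the Rieske protein into complex III, lay at -0.19 on a dim probe (standard error 0.14).

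**Figure D3:**
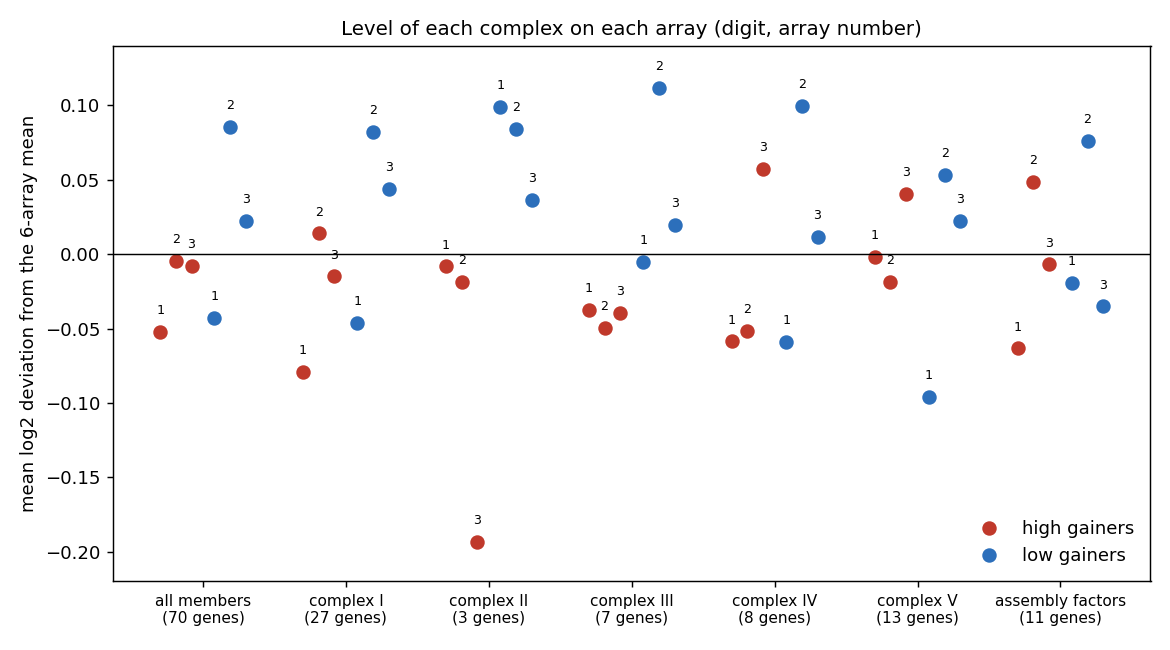
Mean log2 deviation of each complex from its own mean over 6 arrays, shown for each array (digits give the array number), with high gainers left of low gainers. The 3 high-gainer arrays and the 3 low-gainer arrays overlap for all members together, which lie at -0.05 to 0.00 in high gainers and -0.04 to 0.09 in low gainers. They do not overlap for complex II, at -0.19 to -0.01 in high gainers and 0.04 to 0.10 in low gainers. Nor do they for complex III, at -0.05 to -0.04 in high gainers and -0.01 to 0.11 in low gainers. For complexes I, IV and V and the assembly factors they overlap.

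Arrays of the same RNA differed by more than the pools did for most members. For 63 of 70 members (90.0%) the range within at least 1 pool exceeded the difference between the pools, which held for 72.9% of all tested probes. Averaged over the members, the high-gainer arrays lay at -0.05, 0.00 and -0.01 relative to the mean of all 6, and the low-gainer arrays at -0.04, 0.09 and 0.02. The low-gainer array numbered 1 thus lay within the range of the high-gainer arrays. For 19 members (27.1%) this array was more than 0.25 log2 units below the mean of the other low-gainer arrays, and for 1 member, Atpif1, it was as far above them, where 19.1% and 17.5% of all tested probes were so placed. Atp5g2, a c ring gene, had 163274, 135505 and 184084 in high gainers, against 121979, 211287 and 177668 in low gainers. Ndufc2, an accessory subunit of complex I, had 97620, 96580 and 107310 in high gainers, against 89206, 142555 and 130611 in low gainers. The low-gainer pool held both the lowest and the highest array of each of these genes. Without low gainers replicate 1 the log2 ratio of Ndufc2 was -0.44 (limma adjusted p = 0.0370) and that of Ndufa9 -0.35 (limma adjusted p = 0.0456), where the fit with all arrays gave -0.24 and -0.26. Neither was called, and the count of called members was 0 in both directions whichever array was left out. What set this array apart for these genes was not tested.

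**Figure D4:**
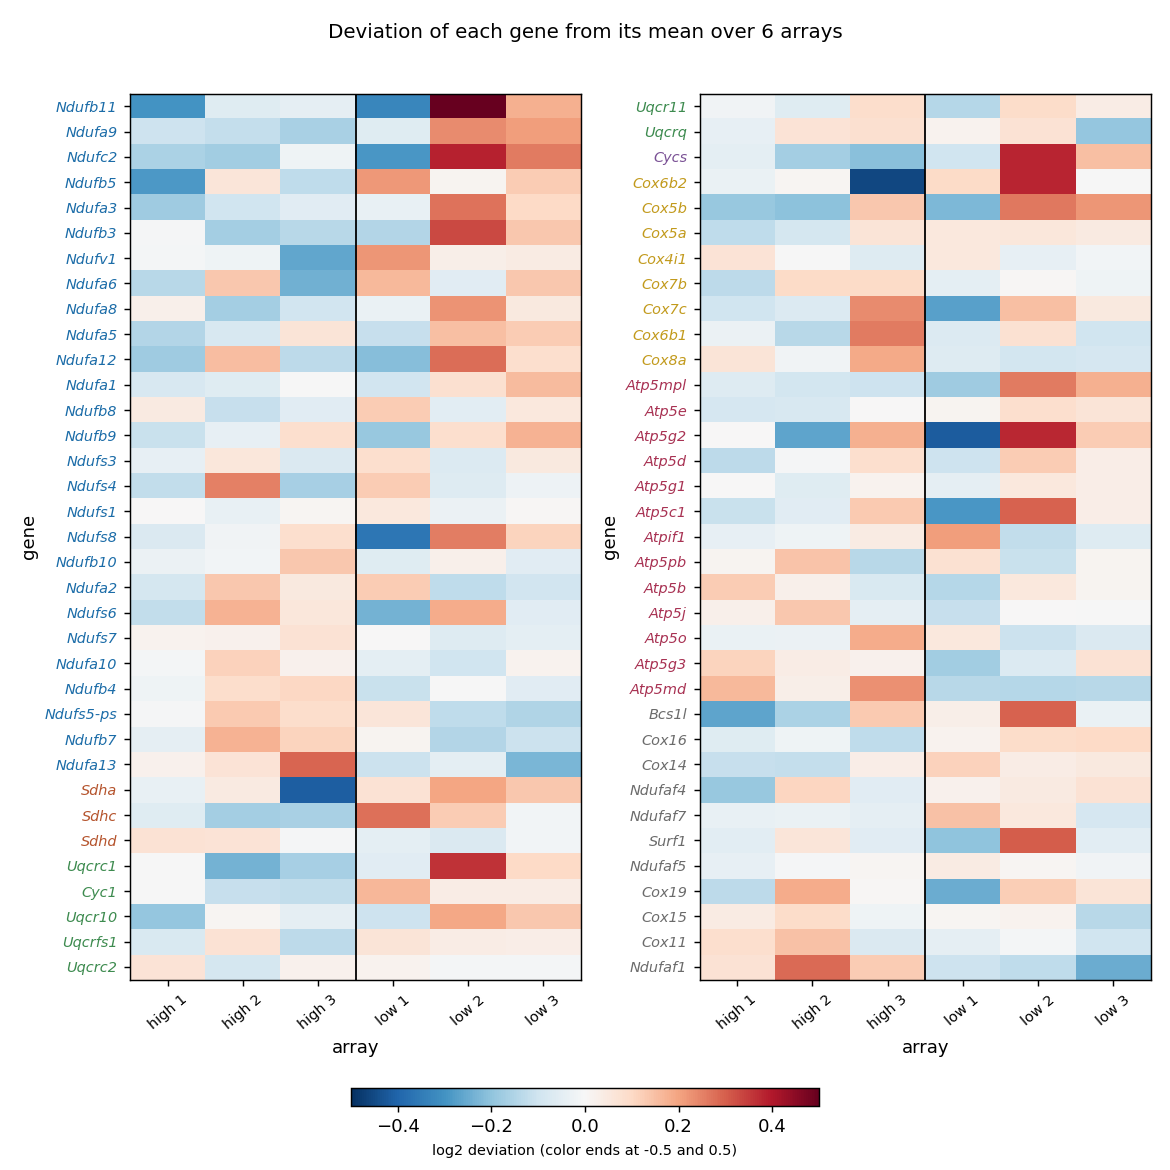
Log2 deviation of each of the 70 members (rows, grouped by complex in the colors of the names) from its mean over 6 arrays (columns), with high gainers left of the vertical line and low gainers right of it. Low-gainer array 1 is blue and low-gainer array 2 red for many genes, among them Atp5g2 with 121979 and 211287.

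Both isoforms that had been set apart lay below the 7 broadly expressed subunits of complex IV, and neither was called. Cox7a1, the subunit isoform of brown fat, heart and muscle, had 49254, 48695 and 60945 in high gainers, against 71924, 83617 and 83557 in low gainers. All high-gainer arrays were below all low-gainer arrays, with a log2 ratio of -0.59 (standard error 0.13, limma adjusted p = 0.0187), which missed the threshold of 0.01. It passed when dim probes were left out (limma adjusted p = 0.00647) and with an intensity trend (limma adjusted p = 0.00305). Cox8b had 844788, 799515 and 808203 in high gainers, against 1011527, 992359 and 982885 in low gainers, also with no overlap and a log2 ratio of -0.28 (standard error 0.09, limma adjusted p = 0.0637). The skeletal muscle list had 12 of 12 genes below 0, of which 10 were called lower in high gainers, and the sum of its 12 signals was 1771170 to 1842663 on the high-gainer arrays, against 2774107 to 3159377 on the low-gainer arrays. Of 10 measured markers of brown and beige adipocytes, which include both isoforms, 2 were called lower, Ucp1 and Fabp3, and 8 of 10 lay below 0. The other 2, Ebf2 and Prdm16, lay at 0.46 (standard error 0.10, limma adjusted p = 0.0213) and 0.44 (standard error 0.16, limma adjusted p = 0.109). Neither was called, and the arrays of the pools did not overlap for either gene. Without Cox7a1 and Cox8b, the summed signal of the remaining 8 markers was 93747 to 97253 in high gainers, against 146070 to 163959 in low gainers. Such a sum follows the genes with the largest differences in signal. The mean signal of Ucp1 was 7527 in high gainers, against 51792 in low gainers, and that of Fabp3 6453, against 22035. Of the brown fat markers Cidea, Elovl3 and Zic1, Zic1 was blank on all 6 arrays and the others on 1 high-gainer array each. The part of muscle or of beige adipocytes in the values of Cox7a1 and Cox8b was not tested.

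Outside the complexes, 4 further lists of the pathway were examined, and calls came from the list of genes that use the proton gradient, carry metabolites or form pores. Of its 10 measured genes, 0 were called higher and 2 lower in high gainers. Ucp1 had 6936, 7717 and 7927 in high gainers, against 48242, 60758 and 46376 in low gainers, a log2 ratio of -2.77 (standard error 0.13, limma adjusted p = 0.000174) and a 6.84-fold lower signal. Ckmt2, the mitochondrial creatine kinase of muscle, had 11497, 10750 and 13243 in high gainers, against 31582, 31290 and 33394 in low gainers, a log2 ratio of -1.44 (standard error 0.11, limma adjusted p = 0.000309). Each low-gainer array of these genes was more than 2 times as bright as each high-gainer array. The median of the 10 genes was 0.05, beside 0.03 over all tested probes, and the part of muscle or beige adipocytes in both calls was not tested.

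The remaining pathway lists held no called gene. They name some genes by both an older and a newer symbol, so that their sizes count symbols. The genes that make ubiquinone, or feed electrons to it or to cytochrome c, were 8 measured of 19 symbols. Their median log2 ratio was 0.08. Prodh, proline dehydrogenase, was highest at 0.25 (standard error 0.09, limma adjusted p = 0.109). The genes of inner membrane insertion and further assembly, 27 measured of 39 symbols, had a median of 0.01 and ran from -0.24 to 0.23. Among the regulators of mitochondrial gene expression, 17 measured of 24 symbols, the median was -0.06. Of the 17, 2 higher and 6 lower in high gainers had arrays that did not overlap, as did 20.3% and 16.3% of all tested probes. Nrf1, at -0.26 (limma adjusted p = 0.167), and Yy1, at -0.20 (limma adjusted p = 0.275), were among the lower ones. Ppargc1a, the coactivator that induces mitochondrial genes in the cold, had 12814, 13274 and 14363 in high gainers, against 11727, 14916 and 15705 in low gainers, at a log2 ratio of -0.06 (standard error 0.13). Esrra, a nuclear receptor that works with it, lay at 0.03 (standard error 0.10), and both genes had arrays that overlapped. Tfam, which packs and transcribes mitochondrial DNA, had 33955, 37154 and 34978 in high gainers, against 44425, 44497 and 48009 in low gainers. Its arrays did not overlap, and at a log2 ratio of -0.37 it had a limma adjusted p of 0.0349 and a fold under 1.5. Twnk, the helicase that replicates mitochondrial DNA, lay at 0.59 on a dim probe with 2488, 2811 and 2769 in high gainers, against 2038, 1388 and 2001 in low gainers (standard error 0.16, limma adjusted p = 0.0465). Neither gene met the adjusted p of 0.01.

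**Figure D5:**
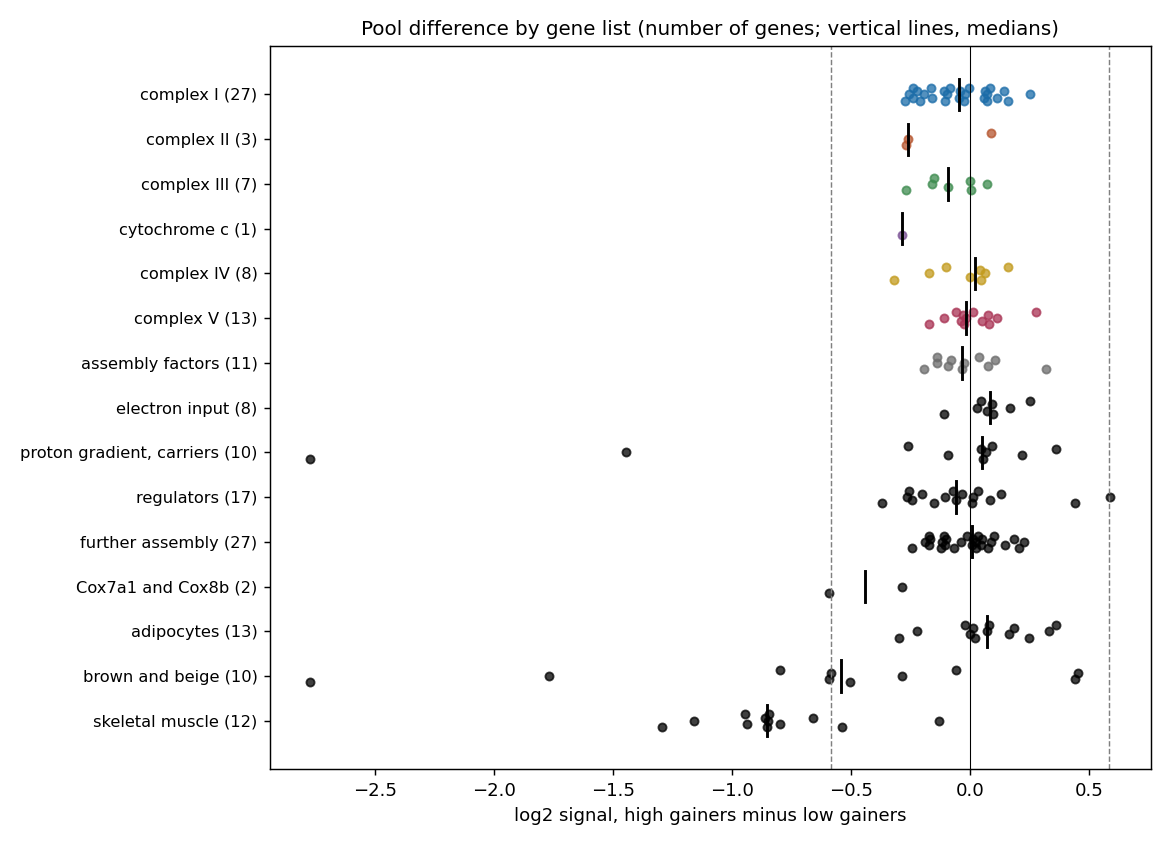
Log2 signal of high gainers minus low gainers for each measured gene (points) by list, with the number of genes in brackets, vertical bars at the medians and dashed lines at 1.5-fold. The members lie between -0.32 and 0.32, while Ucp1 at -2.77 and Ckmt2 at -1.44 lie far to the left and the 12 skeletal muscle genes have a median of -0.85.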

How the data were processed

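Deposited signal intensities of 6 one-color chemiluminescent mouse genome arrays, 3 for each of 2 RNA pools of 8 mice, were used. As their methods describe, the authors transcribed 1 μg of RNA of each pool into labeled cRNA, analyzed the images and normalized the intensities by the quantile method. Blank cells were treated as not measured, and what left them blank is not given in the sources used. The 15821 probes with values on all 6 arrays were taken to log2 and fitted by lmFit and eBayes of limma 3.58.1 under R 4.3.3, with Benjamini-Hochberg adjustment over all of them. The procedure was tested on simulated arrays. The number of arrays limits the precision.

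A single symbol was annotated for 14411 probes, more than 1 for 247 and no symbol for 18354, and a gene was represented by its brightest probe. A probe was dim where its mean was in the lowest 33.3% of tested probes. Members named singly are those called (0), the brightest and the extreme members of each complex, core subunits, isoform pairs and assembly factors. Others were chosen after their values were seen, among them the subgroups of complexes. The members and lists were chosen with earlier results of these data known. Promoter windows came from RefSeq (GRCm38.p6).

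The settings also tried were another quantile normalization and centering on the probe median or on the adipocyte marker mean. Further settings were an offset of the 10th percentile (2848), dim probes left out and values on at least 2 arrays of each pool. An intensity trend with robust estimation, other thresholds, a t-test with pooled variance, a gene's mean over its probes and updated symbols were also used. The last were restricted isoforms left out, the array number as a block and leaving out each array. For 2 groups the t-test with pooled variance equals the ANOVA of the methods, whose limits on signal-to-noise and flags were not applied here.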

Additional observations from a re-analysis of the deposited data

How the results depend on the processing

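The count of called members was 0 in both directions under every alternative, except for the unadjusted p under 0.05 without a fold threshold, which gave 2 members higher and 1 lower in high gainers. Centering on the mean of the adipocyte markers moved the median log2 ratio to -0.10 over all members, -0.12 in complex I, -0.16 in complex III, -0.090 in complex V and -0.11 in the assembly factors, and turned that of complex IV to -0.051. It also turned the sign of 13 of 70 members, Atp5b (-0.022), Atp5pb (-0.059), Cox19 (-0.034), Cox4i1 (-0.071), Cox6b1 (-0.0109), Cox7b (-0.031), Cox7c (-0.026), Ndufa2 (-0.0081), Ndufb10 (-0.0118), Ndufs6 (-0.00068), Uqcr11 (-0.066), Uqcrc2 (-0.071) and Uqcrq (-0.00110), and of Esrra (-0.038). None of these was called. With 1 array left out the median ran from -0.076 to -0.022 over all members, -0.12 to -0.029 in complex I, -0.30 to -0.13 in complex II, -0.14 to -0.048 in complex III, -0.056 to 0.029 in complex IV and -0.041 to 0.050 in complex V. The ratio of 56 of 70 members moved by over 1.5 times without some array, and that of 20 members changed sign. These 20 were Atp5b (-0.0071 to 0.10), Atp5c1 (-0.17 to 0.12), Atp5d (-0.097 to 0.020), Atp5g2 (-0.28 to 0.12), Atp5pb (-0.055 to 0.086), Atpif1 (-0.082 to 0.084), Cox4i1 (-0.033 to 0.035), Cox6b1 (-0.052 to 0.15), Cox7c (-0.077 to 0.13), Cox19 (-0.075 to 0.11), Ndufa12 (-0.235 to 0.0112), Ndufb9 (-0.152 to 0.030), Ndufs1 (-0.038 to 0.0034), Ndufs4 (-0.16 to 0.052), Ndufs6 (-0.028 to 0.183), Ndufs8 (-0.18 to 0.12), Surf1 (-0.14 to 0.11), Uqcr11 (-0.062 to 0.055), Uqcrc2 (-0.032 to 0.045) and Uqcrq (-0.0073 to 0.13). Of the regulators Esrra (-0.049 to 0.078) and Ppargc1a (-0.18 to 0.026) did so too. Ucp1 (-2.85 to -2.65) and Ckmt2 (-1.53 to -1.38) stayed called. Cox7a1 was also called by the t-test with pooled variance at an unadjusted p under 0.01. Its adjusted p under the alternatives ran from 0.00305 to 0.0797.

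Over the 8596 named genes limma called 250 higher and 347 lower in high gainers. After 1 array was left out it called 58 to 175 higher and 207 to 274 lower. The t-test with pooled variance called 34 and 67 after adjustment. At an adjusted p under 0.05 without a fold threshold limma called 827 and 651. Centering on the adipocyte markers gave 148 higher and 376 lower. The array numbers were checked as pairs. Same-numbered arrays of the pools had deviations that correlated at r = 0.04, -0.11 and 0.27 over all tested probes. Arrays with different numbers correlated between r = -0.34 and 0.36, so that the array numbers did not mark the arrays that varied together. What such arrays shared was not tested. With the array number as a replicate block limma called 100 genes higher and 249 lower, and 0 members in either direction. An effect under 1.5-fold would not have been called at any precision.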
